A study of Homo sapiens with 12 samples.

Results

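The Frizzled receptors are the 10 genes FZD1 to FZD10, chosen by gene symbol alone, and all 10 were found among the 56593 distinct symbols of the deposited expression table, each on a single line. Their RNA was measured by RNA-seq in 12 libraries from the established human embryonic stem cell line H1 and from 3 populations that H1 cultures gave rise to on the way to blood. The 4 groups, with 3 libraries each, were undifferentiated H1 cells, APLNR+ cells from day 2 (mesoderm cells carrying the apelin receptor), CD31+CD34+ cells from day 5 (hemogenic endothelial progenitors, HEPs) and CD43+ cells from day 8 (hematopoietic progenitor cells, HPCs). The medium of the differentiating cultures held activin A and BMP4 for the first 2 days and VEGF and bFGF for the following 6 days. All groups came from 1 cell line without genetic change, and nothing in the labels says that the 3 libraries of a group came from separate cultures, so p-values measure only the spread between these libraries, which may be technical.

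Frizzled proteins are multi-pass membrane receptors whose extracellular cysteine-rich domain binds secreted Wnt ligands. With the co-receptors LRP5 and LRP6 they pass the signal to Dishevelled proteins and stabilize beta-catenin, which then acts with TCF/LEF factors on target genes, and with other partners such as ROR2 or VANGL2 they serve beta-catenin-independent and planar polarity pathways. Wnt signaling is known to be needed for mesoderm formation and to bear on the choice between endothelial and blood fates, and sequence groups the receptors into the subfamilies FZD1, FZD2 and FZD7, FZD5 and FZD8, FZD9 and FZD10 with FZD4 nearby, and FZD3 and FZD6.

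The contact with Dishevelled runs through a short motif after the last membrane pass, a lysine and a threonine followed at a fixed distance by a tryptophan. The 18 coding bases of this motif are shown for 8 members because all of these receptors pass their signal on through it. They were read from GENCODE release 29 transcripts (GRCh38), and capitals mark the 10 bases that are the same in all 8.
FZD1: AAgACccTcaActCcTGG
FZD2: AAgACgcTgcActCgTGG
FZD7: AAgACccTgcAgtCgTGG
FZD5: AAgACggTggAgtCgTGG
FZD8: AAgACgcTggAgtCcTGG
FZD4: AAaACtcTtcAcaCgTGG
FZD9: AAgACttTccAgaCcTGG
FZD10: AAgACtcTgcAgtCcTGG

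Over the whole coding sequence the closest members were FZD2 and FZD7 (82.6% of aligned bases identical), FZD1 and FZD2 (82.5%), FZD1 and FZD7 (81.3%), and FZD5 and FZD8 (79.7%), followed by FZD9 and FZD10 (76.0%), and FZD3 and FZD6 shared 66.0%. Short reads could still be told apart for most of these genes, since at most 2.67% of the 50-base stretches of a member's transcript, the value for FZD2, also occurred in another member. The longest run that FZD1 and FZD2 have in common is 81 bases of their coding sequence (bases 1182 to 1262 of FZD1 and 957 to 1037 of FZD2), where a short read cannot be given to either gene.
FZD1 and FZD2 shared run: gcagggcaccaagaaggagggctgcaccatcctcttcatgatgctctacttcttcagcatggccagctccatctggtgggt

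Values are FPKM, by definition fragment levels corrected for transcript length and library total, which allows genes to be compared. The sum over all genes was nevertheless uneven, from 567793 to 1.56e+06 FPKM per library. Over protein-coding genes it ran from 351975 FPKM (APLNR+ replicate 1) to 494013 FPKM (CD43+ replicate 2). The relative depth of the libraries, estimated from low FPKM values, ranged from 0.551 to 1.27 times that of CD43+ replicate 3. By this estimate replicate 1 was the shallowest library of each group. Between 12297 and 13060 genes per library reached 1 FPKM, and a principal component set replicate 1 of every group apart from replicates 2 and 3. The genes of the sorted surface proteins were high in the libraries labelled with them: APLNR averaged 383 FPKM in APLNR+ cells against 0.528 in H1 (and 403 in CD31+CD34+ cells), PECAM1 (CD31) and CD34 averaged 55.2 and 47.7 FPKM in HEPs and 95.9 and 22.2 FPKM in HPCs, and SPN (CD43) averaged 75.5 FPKM in CD43+ cells against 3.70 in CD31+CD34+ cells. Markers of other cells were present too, and their part in the Frizzled values was not tested. All 5 fibroblast or smooth muscle markers reached 1 FPKM in every CD31+CD34+ and CD43+ library, with a summed level of 76.2 to 107 FPKM in H1, 423 to 566 in APLNR+, 369 to 445 in CD31+CD34+ and 117 to 144 in CD43+ cells. TAGLN made up most of that sum in APLNR+ (466 FPKM) and CD31+CD34+ cells (274 FPKM) and averaged 15.7 FPKM in CD43+ cells. COL1A1 was lower in CD43+ cells too, with means of 85 FPKM in CD31+CD34+ and 19.2 FPKM in CD43+ cells. COL3A1 (24.2 and 44.2), ACTA2 (13.3 and 34.8) and PDGFRB (13.2 and 17.5 FPKM) had higher means in CD43+ than in CD31+CD34+ cells, though the PDGFRB libraries overlapped. The 6 endothelial markers still summed to 325 to 410 FPKM in CD43+ cells, against 533 to 698 in CD31+CD34+ cells, and the 4 pluripotency markers to 400 to 452 FPKM in APLNR+ cells, against 1378 to 1447 in H1. SOX2 among them averaged 0.269 FPKM in APLNR+ cells and 43.0 in H1. Among the 5 blood markers, PTPRC encodes CD45, which was not the protein sorted on. It was at 0 in CD31+CD34+ cells and averaged 0.197 FPKM in CD43+ cells. The list summed to 1159 to 1294 FPKM there, mostly from HBE1 (525 FPKM) and ITGA2B (575 FPKM). In such bulk samples, fewer cells that make an RNA and less of that RNA per cell cannot be told apart.

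The Frizzled genes as a family were most abundant in mesoderm and least abundant in HPCs. The summed level of the 10 genes was 75.0 ± 1.72 FPKM in H1, 107.8 ± 1.28 in mesoderm, 30.3 ± 0.994 in HEPs and 20.4 ± 0.745 in HPCs (SD, n = 3). The libraries of the 4 groups did not overlap in this sum, which was 1.44 times higher in APLNR+ cells than in H1, 3.56 times lower in CD31+CD34+ than in APLNR+ cells, and 1.49 times lower in CD43+ than in CD31+CD34+ cells. FZD7, a receptor known for its part in the stem cell state and in mesoderm formation, had the highest level in each group, but its share of the sum shrank. It made up 62.7 ± 3.09% of the sum in H1, 54.9 ± 1.28% in mesoderm, 29.1 ± 1.20% in HEPs and 21.1 ± 0.208% in HPCs. Without FZD7 the sum was 27.9, 48.6, 21.5 and 16.1 FPKM in the same order, so this sum was also highest in APLNR+ and lowest in CD43+ cells. FZD8 (17.5 FPKM) and FZD4 (11.8 FPKM) made up most of it in APLNR+ cells. This order did not hold for each member, since FZD3 and FZD5 were highest in H1, and FZD8, FZD4 and FZD2 were lowest there.

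**Figure D1:**
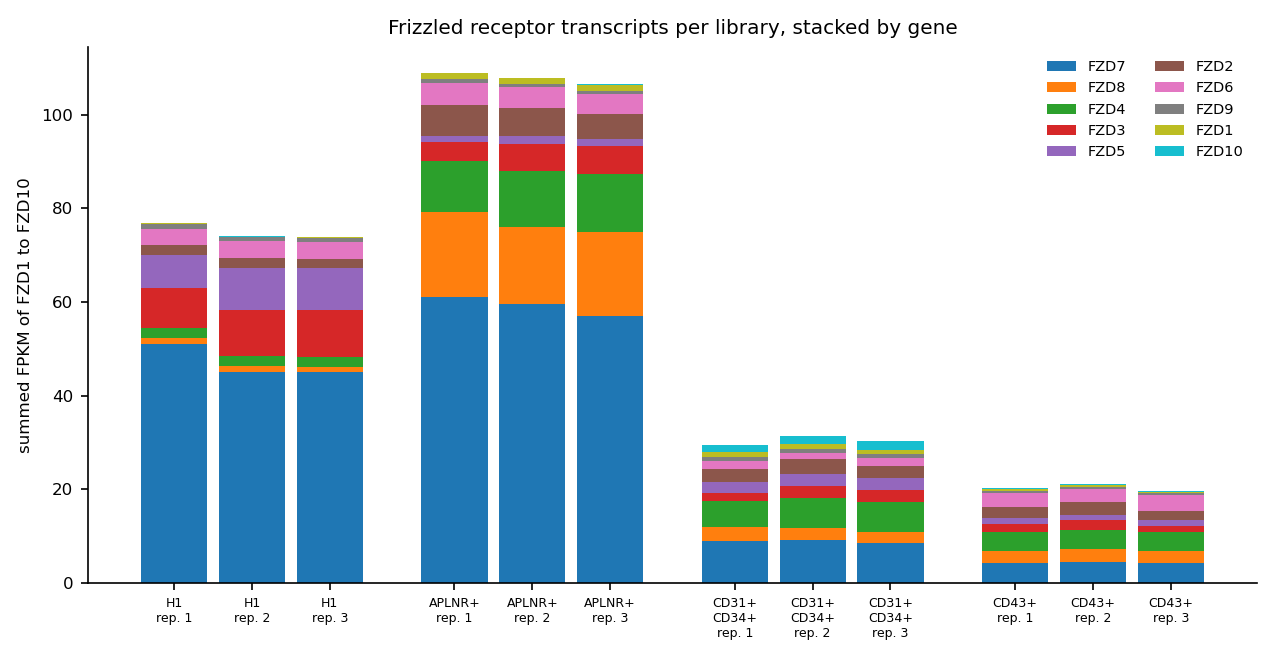
Stacked bars give the FPKM of FZD1 to FZD10 in each of the 12 libraries, by population and replicate (rep.), with the height of a bar as the summed FPKM. FZD7, at the base, holds 62.7% of the sum in H1 and 21.1% in CD43+ cells, and FZD8, FZD4, FZD3 and FZD5 take different shares in each population.

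The members that followed FZD7 changed from group to group. In H1 they were FZD3 with 12.8% of the sum and FZD5 with 11.03%, and no other member held over 5%. In APLNR+ cells FZD8 was next with 16.2%, followed by FZD4 with 10.9%. In CD31+CD34+ cells FZD4 was next with 20.1%, and in CD43+ cells FZD4 with 19.3%, FZD6 with 15.2% and FZD8 with 13.2% stood close to FZD7. The inverse of the summed squared shares, which counts how many equally abundant members would give the same spread, was 2.35 in H1, 2.88 in mesoderm, 6.16 in HEPs and 6.75 in HPCs. The RNA was thus spread over more of the receptors in HEPs and HPCs than in H1 or mesoderm.

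Of the 10 members, 9 entered the test across genes, which kept genes at or above 1 FPKM in at least 3 libraries. FZD2 to FZD8, 7 members, reached 1 FPKM in all 12 libraries. FZD1 passed through 5 libraries of the APLNR+ and CD31+CD34+ groups and FZD10 only through the 3 CD31+CD34+ libraries, so a difference of these 2 genes from the other groups was built into their selection and their p-values are not given as evidence. FZD9 reached 1 FPKM in 1 library and was not tested. Counts and medians over all 9 tested members include FZD1 and FZD10, so part of them was fixed by the selection of these 2 genes. Raised and lowered stand for a limma adjusted p under 0.05 together with a 2-fold or larger change in FPKM + 1. Log2 changes are of FPKM + 1, which understates the change of low genes. Shares of all genes given below are over every gene that passed this filter. They are not limited to genes at 1 FPKM in all 12 libraries, so they are no matched baseline for the 7 members.

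**Figure D2:**
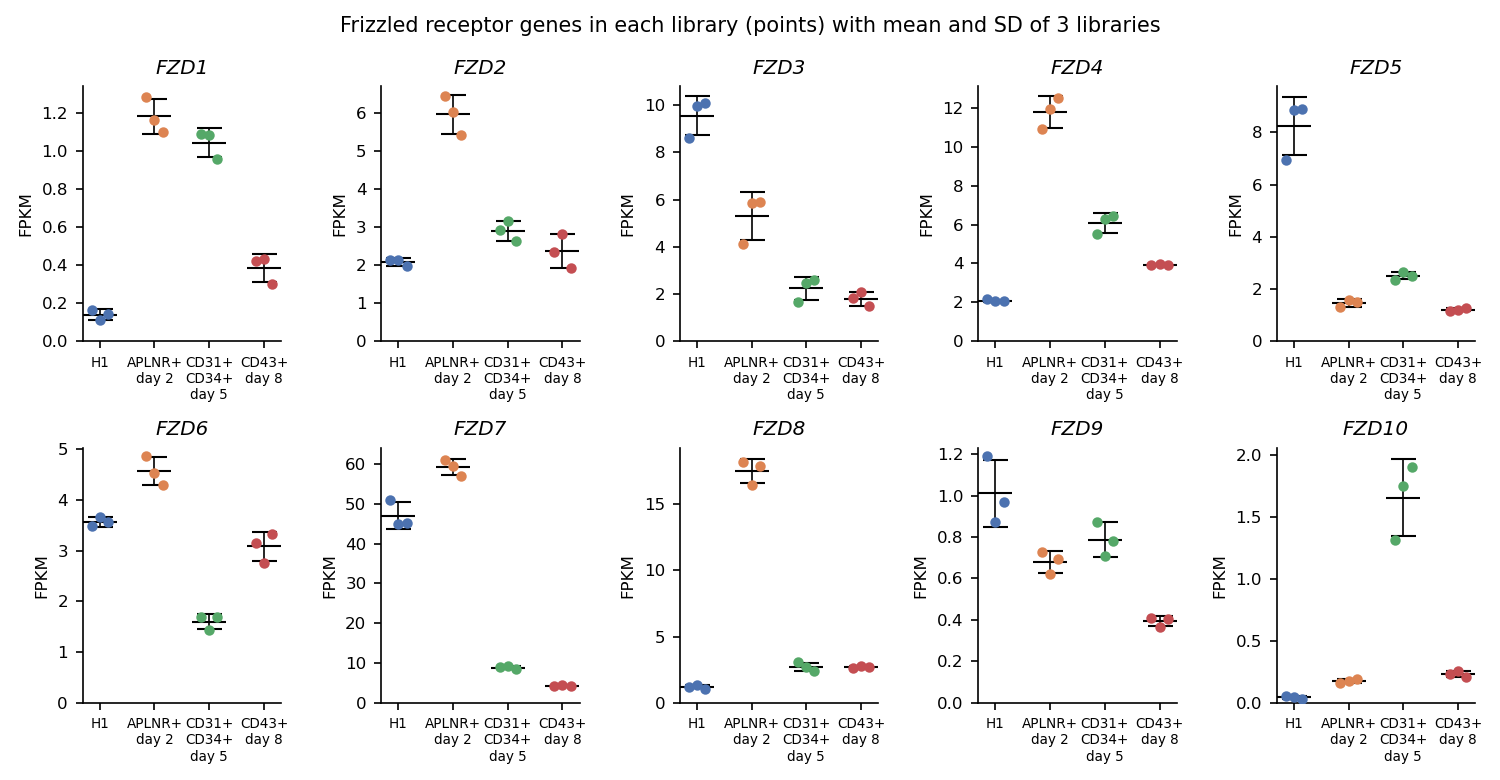
Each panel shows 1 Frizzled gene, with FPKM on a linear axis that starts at 0 and has its own range, the 4 populations on the horizontal axis, a point per library and lines for the mean and SD of 3 libraries. FZD8 and FZD4 are highest in the APLNR+ libraries, FZD3 and FZD5 in the H1 libraries and FZD10 in the CD31+CD34+ libraries.

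The step from H1 to APLNR+ mesoderm was described first. Of the 7 members detected in every library, FZD8, FZD4 and FZD2 rose and FZD5 fell. Across all 14840 genes tested, 8.30% were called raised and 7.62% lowered, 15.9% in all. The libraries of the groups did not overlap for any of the 7 members detected in every library, against 66.0% of all genes. The median change over the 9 members tested, FZD1 and FZD10 included, was 0.33, beside -0.12 over all genes, on the log2 scale.

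FZD8, a Wnt receptor whose cysteine-rich domain gave the first structure of a Wnt bound to its receptor, was at 1.22, 1.32 and 1.07 FPKM in the H1 libraries and at 18.2, 16.5 and 17.9 FPKM in the APLNR+ libraries. Every APLNR+ library stood far above every H1 library. The log2 change was 3.07 ± 0.09 (SE, limma adjusted p 1.03e-10), and the mean FPKM was 14.5 times higher. Its subfamily partner FZD5, a receptor also known from eye and gut development, went the other way, from 6.96, 8.87 and 8.92 FPKM in H1 to 1.30, 1.57 and 1.503 FPKM in mesoderm. No library of the groups overlapped, and FZD5 fell by 1.91 ± 0.10 on the log2 scale (limma adjusted p 1.44e-08), to a mean 5.66 times lower.

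FZD4, the receptor of the non-Wnt ligand norrin in the vessels of the retina, had 2.15, 2.05 and 2.05 FPKM in the H1 libraries and 10.9, 11.9 and 12.5 FPKM in those of mesoderm. The groups lay well apart, with a log2 change of 2.05 ± 0.09 (limma adjusted p 1.92e-09) and a mean 5.65 times higher. FZD2, a receptor for WNT3A and WNT5A among others, was measured at 2.14, 2.12 and 1.97 FPKM in H1, with 6.43, 6.03 and 5.41 FPKM in mesoderm. It was 2.86 times higher by mean FPKM (log2 change 1.17 ± 0.11, limma adjusted p 2.60e-06).

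The other members of the first step missed the 2-fold minimum. FZD7 had 51.0, 45.0 and 45.1 FPKM in the H1 libraries against 61.1, 59.6 and 57.0 FPKM in mesoderm, with a log2 change of 0.33 ± 0.08 (limma adjusted p 0.00407). Its lowest APLNR+ library was thus above its highest H1 library, by a small margin beside that of FZD8. FZD3, a receptor tied to planar polarity and axon guidance, was lower in mesoderm, with a log2 change of -0.75 ± 0.15 (limma adjusted p 0.00103), and FZD6, also a planar polarity receptor, changed by 0.28 (limma adjusted p 0.0182). FZD1 was between 0.112 and 0.166 FPKM in H1 and between 1.10 and 1.28 FPKM in APLNR+ cells. Its FPKM ratio was 8.42, but the log2 change was 0.94 with a pseudocount of 1 and 2.42 with a pseudocount of 0.1, on either side of the 2-fold minimum.

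The ratios of subfamily members within each library put the changes above on a single scale and are not further evidence for them. The log2 ratio of FZD5 to FZD8, with 1 FPKM added to each, was 2.06 ± 0.21 in H1 and -2.91 ± 0.15 in mesoderm (SD, n = 3), and these differed by -4.98. FZD5 was thus the higher of the pair in all 3 H1 libraries and FZD8 in all 3 APLNR+ libraries. In CD31+CD34+ cells the pair stood nearly level at -0.08 ± 0.17, and in CD43+ cells FZD8 was again the higher at -0.75 ± 0.04. Over the 18 tests of 6 pairs of subfamily members in 3 steps, the two-sided exact permutation test gave its smallest possible p, 0.1, in 17, with a Benjamini-Hochberg value of 0.106, so this design could not take any of them past 0.05.

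**Figure D3:**
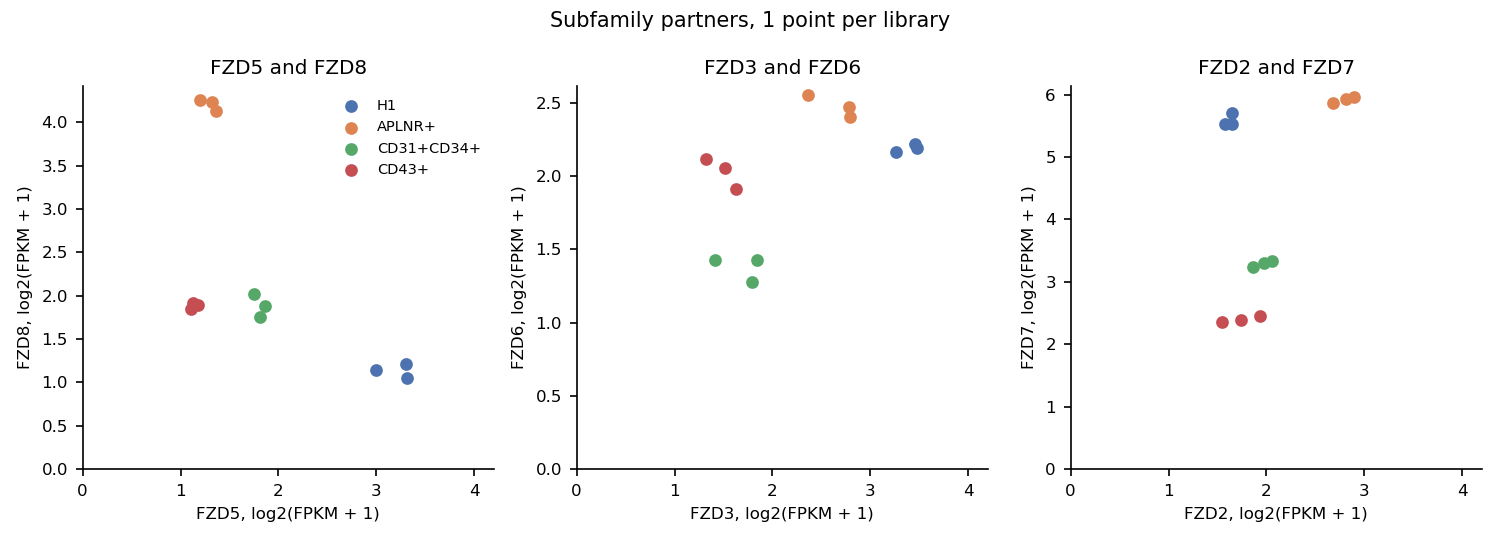
Log2(FPKM + 1) of FZD8 against FZD5, FZD6 against FZD3 and FZD7 against FZD2, with 1 point per library and a color per population. FZD5 is higher than FZD8 in the H1 libraries and lower in the APLNR+ libraries, and FZD7 is above FZD2 in all 12 libraries.

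The promoters of FZD8, FZD5 and FZD4, the members with the largest changes of the first step on the log2(FPKM + 1) scale, are printed below. By the ratio of mean FPKM, FZD1 at 8.42 changed more than FZD5 and FZD4. The promoter sequences were taken from RefSeq (GRCh38.p14), whose promoter table held 5 of the 10 members (FZD1, FZD4, FZD5, FZD8 and FZD9), and each runs over the 250 bases before the start of the gene, on the gene's strand. The expression values were made on hg19, so these positions belong to another build. Capitals mark TATAAA and CCAAT, or its reverse complement ATTGG.
FZD8, chr10:35642297-35642546, minus strand: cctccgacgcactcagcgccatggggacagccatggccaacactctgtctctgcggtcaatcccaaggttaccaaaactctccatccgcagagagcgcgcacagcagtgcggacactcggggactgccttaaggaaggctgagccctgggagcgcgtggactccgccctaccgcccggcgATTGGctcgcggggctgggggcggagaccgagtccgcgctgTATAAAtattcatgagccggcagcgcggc
FZD5, chr2:207769907-207770156, minus strand: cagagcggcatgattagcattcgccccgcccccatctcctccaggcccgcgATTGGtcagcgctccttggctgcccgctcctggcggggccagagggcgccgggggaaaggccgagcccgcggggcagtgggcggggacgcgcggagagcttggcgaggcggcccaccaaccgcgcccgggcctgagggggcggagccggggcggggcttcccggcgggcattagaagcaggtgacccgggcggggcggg
FZD4, chr11:86955396-86955645, minus strand: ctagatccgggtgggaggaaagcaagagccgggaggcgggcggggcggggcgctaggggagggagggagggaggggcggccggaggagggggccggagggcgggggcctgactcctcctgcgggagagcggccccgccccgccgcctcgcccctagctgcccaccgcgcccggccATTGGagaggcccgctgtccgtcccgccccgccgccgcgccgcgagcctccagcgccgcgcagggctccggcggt

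All 5 promoters held more G and C than the median of 58.0% over 27305 promoters, from 65.2% in FZD1 and FZD8 to 80.8% in FZD4. Of all promoters, 68.5% held less than FZD1 and FZD8, and 97.5% less than FZD4. The G and C of promoters of tested genes alone was not compared. Among them, FZD8 alone held TATAAA, at 29 bases before the start, a sequence found on either strand in 11.1% of all promoters and in 5.22% of those of tested genes. The Sp/KLF sequence GGGCGG occurred in all 5, with 6 matches each in FZD4 and FZD5 and 3 in FZD8, and is in 67.6% of the promoters of tested genes. CCAAT was found in 4 of the 5 and in 34.9% of the promoters of tested genes. Of the TCF/LEF sequences, CTTTGT was found in FZD1 only (9.12% of the promoters of tested genes) and CTTTGA in none (7.52%), and neither the GATA sequence AGATAA (4.75%) nor the T-box sequence GGTGTG (12.8%) was found in any of the 5. All motifs were searched on both strands, neighboring GGGCGG matches that share bases were counted separately, and a match describes these letters only.

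**Figure D4:**
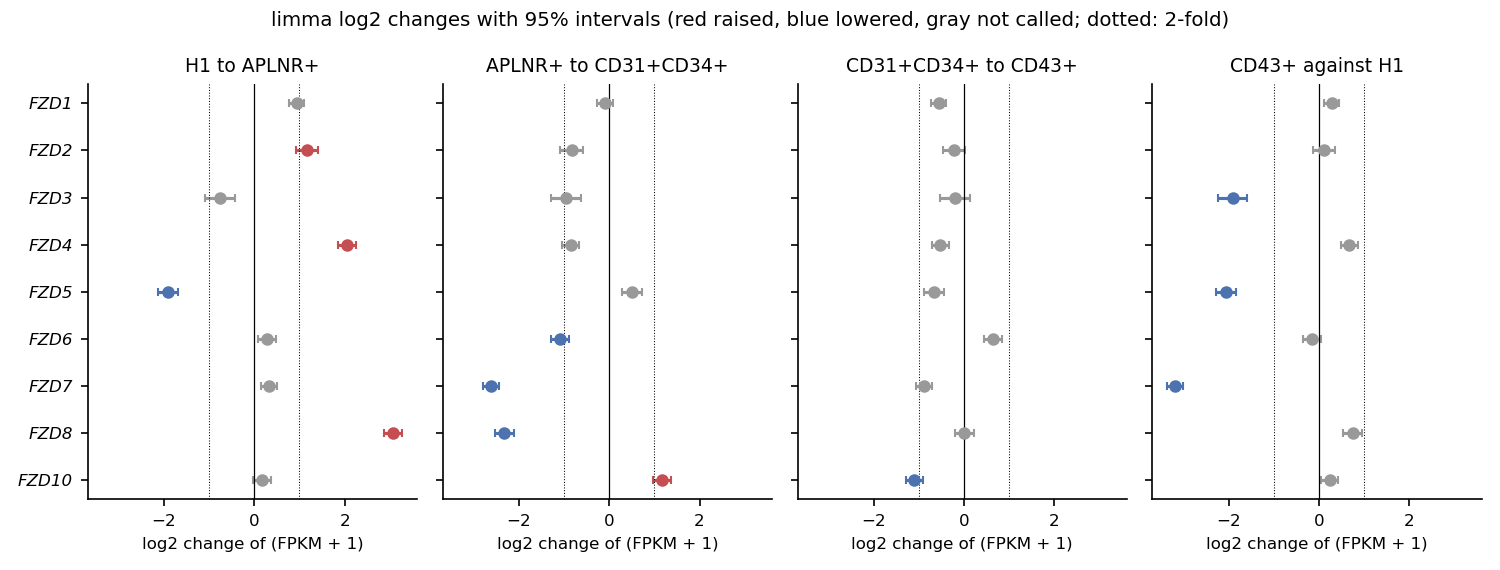
Points are the limma log2 changes of (FPKM + 1) of the 9 tested Frizzled genes for the 3 steps and for CD43+ against H1, with 95% confidence intervals as bars, red for raised, blue for lowered and gray for not called, and dotted lines at a 2-fold change. FZD8 moves from a rise of 3.07 in the first step to a fall by 2.32 in the second and stays near 0 in the third.

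From APLNR+ mesoderm to CD31+CD34+ HEPs, FZD7, FZD8 and FZD6 fell, and none of the 7 members detected in every library rose. These 3 of 7 stand beside 29.6% of all genes called (12.5% raised and 17.1% lowered). No library overlapped for the 7 members detected in every library, where 75.7% of all genes did not overlap either. The median change was -0.85 over the 9 members tested, FZD1 and FZD10 included, and -0.01 over all genes.

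FZD7 went from 61.1, 59.6 and 57.0 FPKM to 8.88, 9.12 and 8.45 FPKM, so that each CD31+CD34+ library held a small part of the level of any APLNR+ library. It fell by 2.62 ± 0.08 on the log2 scale (limma adjusted p 1.11e-10), and its mean was 6.72 times lower. FZD8 went from 18.2, 16.5 and 17.9 FPKM to 3.04, 2.68 and 2.38 FPKM, a mean 6.48 times lower (log2 change -2.32 ± 0.09, limma adjusted p 1.16e-09). The HEP level of FZD8 remained above that of H1, by 0.74 on the log2 scale and 2.24 times by mean FPKM, which did not reach the 2-fold minimum with a pseudocount of 1. FZD6 went from 4.86, 4.54 and 4.30 FPKM to 1.69, 1.43 and 1.69 FPKM, a mean 2.85 times lower. Its log2 change was -1.10 ± 0.09 (limma adjusted p 4.49e-07) and -0.95 after quantile normalization, where the call was lost.

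FZD10 was the member with the most restricted pattern. It was at 0.0539, 0.0489 and 0.0310 FPKM in H1, at 0.159, 0.179 and 0.189 FPKM in mesoderm, at 1.31, 1.75 and 1.91 FPKM in HEPs, and at 0.229, 0.255 and 0.211 FPKM in HPCs. All 3 HEP libraries were above 1 FPKM and all 9 other libraries below 0.3. Its mean was 9.43 times higher in CD31+CD34+ than in APLNR+ cells (log2 change 1.17) and 7.16 times lower in CD43+ cells (log2 change -1.10). Both changes met the thresholds, but FZD10 was in the test only through its 3 HEP libraries, and without any one of them it no longer entered. Its level in HEPs was low beside the other receptors, with 5.45% of the family sum. FZD10-AS1, the antisense RNA beside FZD10, was also highest in CD31+CD34+ cells, at 0.580 to 0.619 FPKM, against 0.151 to 0.266 in APLNR+ and 0.189 to 0.371 in CD43+ cells. Unless the libraries kept strand, reads of such a pair could not be told apart where they overlap. However, no 50-base stretch of the FZD10 transcript occurred in another gene. FZD9, the subfamily partner of FZD10, was at 1.19, 0.873 and 0.969 FPKM in H1, 0.622 to 0.728 FPKM in mesoderm, 0.707 to 0.875 FPKM in HEPs and 0.365 to 0.410 FPKM in HPCs. It was thus lowest in HPCs, where none of its libraries overlapped those of another group, while its H1 and CD31+CD34+ libraries and its CD31+CD34+ and APLNR+ libraries overlapped.

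FZD3, FZD4, FZD2 and FZD5 passed the adjusted p of the second step but not the 2-fold minimum. FZD3 went from 4.13, 5.85 and 5.92 FPKM to 1.67, 2.46 and 2.57 FPKM, with a log2 change of -0.96 ± 0.15 (limma adjusted p 0.000103). In both groups replicate 1 was the lowest library of FZD3, and without APLNR+ replicate 1 the change was -1.10 and passed the minimum, as it did without CD31+CD34+ replicate 2 (-1.01) or replicate 3 (-1.04). FZD4 went from between 10.9 and 12.5 FPKM to 5.50, 6.31 and 6.45 FPKM, with a log2 change of -0.85 (limma adjusted p 3.09e-06), and stayed above its H1 level by 1.20 on that scale. FZD2 changed by -0.83 (limma adjusted p 2.80e-05) and FZD5 by 0.51 (limma adjusted p 0.000705), from 1.30, 1.57 and 1.503 FPKM to 2.36, 2.63 and 2.50 FPKM. FZD5 was the one member of the 7 with a higher mean in HEPs than in mesoderm. FZD1, at 1.09, 1.08 and 0.960 FPKM in HEPs, differed from mesoderm by -0.09, a change whose sign turned under quantile normalization.

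FZD4 shares its locus with PRSS23, a protease gene on the opposite strand. Unless the libraries kept strand, reads of the 2 genes cannot be told apart where they overlap. Of the 50-base stretches of the FZD4 transcript, 17.8% also lay in PRSS23. PRSS23 had means of 2.00, 4.13, 21.4 and 6.97 FPKM in the order of the groups and rose by 2.11 on the log2 scale from APLNR+ to CD31+CD34+ cells, where FZD4 was lower. For FZD6 the overlapping gene was BAALC-AS1, which covered 2.43% of its stretches and had means of 0.462, 0.492, 0.806 and 2.08 FPKM.

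From CD31+CD34+ HEPs to CD43+ HPCs, 0 of the 7 members detected in every library were called by limma, although 4 of these 7 passed the adjusted p alone, and FZD10 was lowered as described. Among all genes 14.4% were called, 5.58% raised and 8.79% lowered. With a pseudocount of 0.1, 4 of 9 members were lowered, FZD7 (-1.02), FZD5 (at the 2-fold minimum), FZD1 (-1.25) and FZD10 (-2.39). The shares above belong to a pseudocount of 1 and are no baseline for this count. It also holds FZD1 and FZD10, which entered the test through groups where they were high. Libraries did not overlap for 6 of 9 members, FZD1 and FZD10 among them, against 58.0% of all genes. The median change was -0.52 over the 9 members tested and -0.00 over all genes.

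FZD7 went from 8.88, 9.12 and 8.45 FPKM to 4.25, 4.50 and 4.12 FPKM. Every CD43+ library was below every CD31+CD34+ library, with a mean 2.06 times lower (log2 change -0.89 ± 0.08, limma adjusted p 1.85e-06). FZD5 went to 1.15, 1.19 and 1.26 FPKM (log2 change -0.67, limma adjusted p 0.000163) and FZD4 to 3.91, 3.95 and 3.91 FPKM (log2 change -0.52, limma adjusted p 0.000345). FZD6 was the one tested member whose HPC libraries were all above its HEP libraries, at 3.15, 2.76 and 3.33 FPKM against 1.43 to 1.69 FPKM (log2 change 0.65 ± 0.09, limma adjusted p 8.03e-05), which did not reach the 2-fold minimum. FZD8 was at 2.60, 2.78 and 2.70 FPKM in HPCs, inside its HEP range. Its log2 change was 0.00 with a 95% interval from -0.21 to 0.21 and a sign that turned with single libraries left out. FZD2 changed by -0.22 (limma adjusted p 0.116) and FZD3 by -0.20 (limma adjusted p 0.290), and the libraries of both overlapped between the groups. FZD1, which was under 1 FPKM in all CD43+ libraries (0.300 to 0.433 FPKM), differed by -0.56.

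Set against H1, the HPCs ended with lower FZD7, FZD5 and FZD3. FZD7 fell by 3.18 ± 0.08 on the log2 scale (limma adjusted p 9.09e-12) and was 10.97 times lower by mean FPKM. FZD5 fell by 2.06 ± 0.10 (limma adjusted p 2.83e-09) and was 6.88 times lower. FZD3, at 8.62, 9.95 and 10.09 FPKM in the H1 libraries and 1.85, 2.08 and 1.49 FPKM in those of HPCs, fell by 1.91 ± 0.15 (limma adjusted p 1.82e-07). These were 3 of 9 members, beside 37.1% of all genes called in this comparison (14.6% raised and 22.5% lowered). No member was raised with a pseudocount of 1, but with 0.1 the count was 6, with FZD1 (1.01), FZD8 (1.10) and FZD10 (1.20) raised. The shares above belong to a pseudocount of 1 and are no baseline for that count. Libraries did not overlap for 8 of 9 members, FZD1 and FZD10 among them, and for 76.3% of all genes. FZD4 was 0.67 higher on the log2 scale in HPCs than in H1 and FZD8 0.75 higher, both under the 2-fold minimum. FZD2 and FZD6 differed by 0.12 (95% interval -0.13 to 0.36) and -0.16 (95% interval -0.36 to 0.03).

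The remaining pairs of groups share their libraries with the comparisons above. In CD31+CD34+ cells against H1, 40.1% of all genes were called, 16.9% raised and 23.2% lowered. Libraries did not overlap for any of the 7 members detected in every library, against 79.0% of all genes. FZD4 (1.20) was raised, as was FZD10 (1.34), whose difference its selection fixed, and FZD7 (-2.29), FZD3 (-1.72) and FZD5 (-1.40) were lowered on the log2 scale. In CD43+ against APLNR+ cells, where 33.6% of all genes were called (14.1% raised and 19.4% lowered), FZD7 (-3.51), FZD8 (-2.32), FZD4 (-1.38), FZD3 (-1.16) and FZD2 (-1.06) were lowered and no member was raised. Libraries did not overlap there for any of the 7 members detected in every library, against 75.4% of all genes. The call of FZD2 was lost without CD43+ replicate 3, at -0.96, and those of FZD2 (-0.89) and FZD3 (-0.99) after quantile normalization.

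The order of the groups therefore differed between members. FZD7 was highest in APLNR+, then H1, CD31+CD34+ and CD43+ cells, with no overlap between neighbors. FZD8, FZD4 and FZD2 were highest in APLNR+ cells and lowest in H1, with the neighbors CD31+CD34+ and CD43+ overlapping for FZD8 and FZD2 and not for FZD4. For FZD2, CD43+ and H1 libraries overlapped as well. FZD3 declined in mean from H1 through all later groups, with overlap between the last pair only. FZD5 was highest in H1, then CD31+CD34+, APLNR+ and CD43+ cells, and the last pair differed by 0.16 on the log2 scale (limma adjusted p 0.182). FZD6 was highest in APLNR+ cells and lowest in CD31+CD34+ cells, and FZD10 was highest in CD31+CD34+ cells.

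Subfamily members shifted against each other in other groups too. The log2 ratio of FZD2 to FZD7 was -3.96 in H1, -3.12 in mesoderm, -1.33 in HEPs and -0.66 in HPCs, so that FZD7 stayed above FZD2 in each but by an ever smaller margin. The ratio of FZD3 to FZD6 was 1.21 in H1, 0.17 in mesoderm, 0.30 in HEPs and -0.54 in HPCs. FZD3 was thus the higher of the planar polarity pair in H1 and FZD6 in HPCs. Between APLNR+ and CD31+CD34+ cells this ratio overlapped (two-sided exact permutation p 0.5). The ratio of FZD9 to FZD10 was 0.94 in H1, 0.52 in mesoderm, -0.57 in HEPs and 0.18 in HPCs, with FZD10 the higher only in the HEP libraries.

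For members whose group means spanned at least 2 on the log2 scale, the 2 genes with the most similar pattern over the 12 libraries were sought, by the root mean square difference of profiles centered on their own mean. For FZD4 these were IER5 (0.129) and TMEM150C (0.134), and for FZD5 they were DGKK (0.0806) and PPP1R1B (0.156). For FZD7 they were C6orf132 (0.161) and KLKB1 (0.193), and for FZD8 HSPD1P11, a pseudogene of a chaperone gene whose reads may be shared with its parent (0.177), and RNF19A (0.224). The other members spanned less than 2. The profiles were of log2(FPKM + 1), which flattens values under 1 FPKM, so a close match can hide unlike FPKM ratios. DGKK averaged 3.43 FPKM in H1 and 0.154 in APLNR+ cells, where FZD5 averaged 8.25 and 1.46. KLKB1 averaged 6.53 FPKM in H1 and 0.0121 in CD43+ cells, where FZD7 averaged 47.0 and 4.29. Only IER5 and RNF19A of these similar genes averaged above 1 FPKM in every group.

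The receptors' partners were described by lists written from general knowledge, and since some of their genes passed the filter only through the groups where they were high, the counts are descriptions. Among all genes 8.30% were raised and 7.62% lowered in the first step, 12.5% and 17.1% in the second, and 5.58% and 8.79% in the third, with median log2 changes of -0.12, -0.01 and -0.00. Of the 9 tested co-receptors and receptor partners, 1 was raised from H1 to APLNR+ cells, 1 was raised and 4 were lowered from APLNR+ to CD31+CD34+ cells, and 4 were lowered from CD31+CD34+ to CD43+ cells, with median log2 changes of 0.63, -0.67 and -0.72. ROR2, a co-receptor for WNT5A, rose from 1.00 FPKM in H1 to 37.0 FPKM in APLNR+ cells (log2 change 4.25, limma adjusted p 1.34e-11) and then averaged 4.58 and 1.40 FPKM. ROR1, its relative, fell from 8.86 FPKM in APLNR+ to 3.06 FPKM in CD31+CD34+ cells (log2 change -1.27, limma adjusted p 0.000125). ADGRA2 (GPR124), an endothelial partner of Frizzled receptors for WNT7 ligands, rose from 1.36 to 28.1 FPKM in HEPs (log2 change 3.62, limma adjusted p 7.23e-11). TSPAN12, the tetraspanin that acts with FZD4 in norrin signaling, averaged 5.76, 11.2, 4.24 and 2.82 FPKM in the order of the groups and fell by 1.23 in the second step (limma adjusted p 4.04e-06). It thus had its highest mean in APLNR+ cells, as FZD4 did. NDP, which encodes norrin, averaged at most 0.145 FPKM in any group and was not tested.

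LRP5 averaged 4.38, 4.60, 5.07 and 5.11 FPKM, with no comparison called. LRP6 averaged 13.99, 12.3, 7.35 and 4.74 FPKM, and fell by 1.38 from H1 to CD43+ cells (limma adjusted p 1.46e-05), with no single step called. SMO, the Hedgehog pathway receptor and nearest relative of the Frizzled family, averaged 13.9, 13.2, 19.4 and 10.5 FPKM and was called in none of the 3 steps.

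Among genes of receptor turnover, 4 of 10 were tested. ZNRF3, a ubiquitin ligase that removes Frizzled receptors from the membrane, averaged 4.72, 3.82, 2.99 and 1.39 FPKM and fell by 1.26 from H1 to CD43+ cells (limma adjusted p 4.83e-07). The related RNF43 averaged between 0.278 and 1.17 FPKM and was not tested. LGR5, an R-spondin receptor that passed the filter through its APLNR+ and CD31+CD34+ libraries, averaged 0.0281 FPKM in H1, 17.9 FPKM in mesoderm, 1.33 FPKM in HEPs and 0.0954 FPKM in HPCs. LGR4 averaged 11.6, 37.4, 7.30 and 5.56 FPKM, raised in the first step and lowered by 2.22 in the second (log2 change -2.22, limma adjusted p 9.84e-08). LGR4 and LGR5 thus both had their highest mean where the summed Frizzled level was highest. The R-spondin gene RSPO2 averaged 5.69 FPKM in HEPs and under 1 FPKM in each other group.

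**Figure D5:**
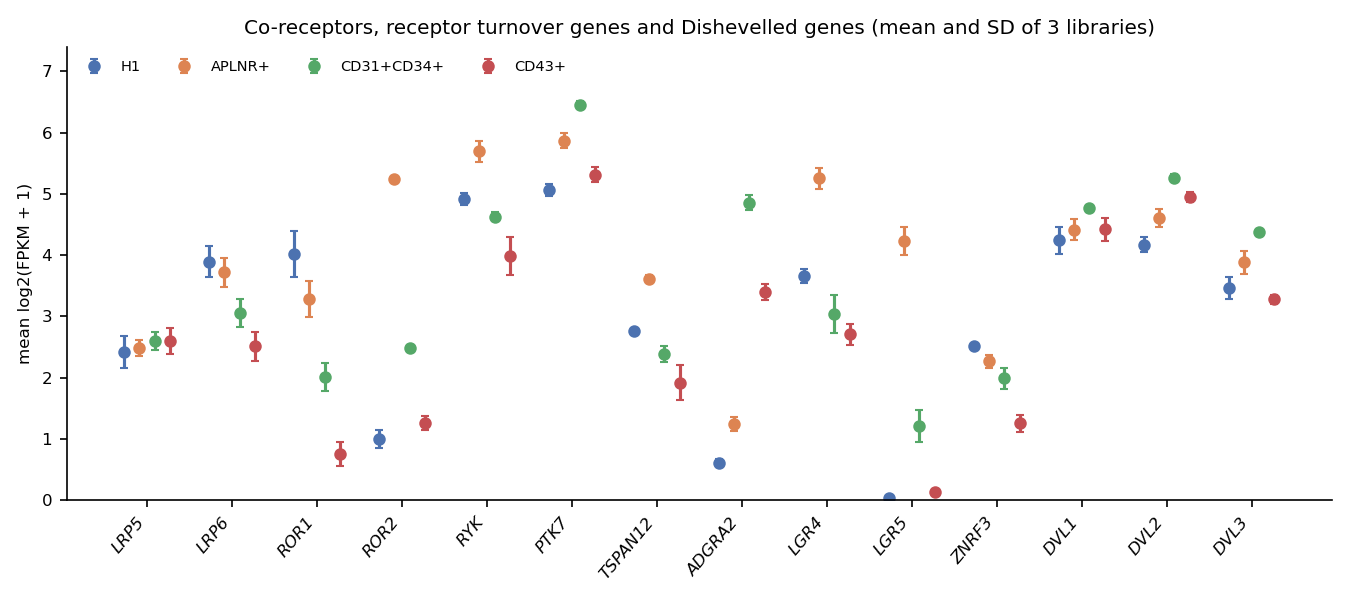
Mean log2(FPKM + 1) and SD of 3 libraries for co-receptors (LRP5 to ADGRA2), R-spondin receptors and ZNRF3 as genes of receptor turnover, and the 3 Dishevelled genes, with a color per population. ROR2 and LGR5 stand out in APLNR+ cells and ADGRA2 in CD31+CD34+ cells, while LRP5 differs little.

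Downstream, the 13 tested genes of the Dishevelled and beta-catenin destruction complex list had 0 calls in the first step by limma, 1 lowered in the second and 2 lowered in the third, against 15.9%, 29.6% and 14.4% of all genes called. DVL1 averaged 18.04, 20.4, 26.2 and 20.5 FPKM, DVL2 17.02, 23.4, 37.4 and 29.9 FPKM, and DVL3 10.1, 13.8, 19.7 and 8.72 FPKM. All 3 Dishevelled genes had their highest mean in CD31+CD34+ cells, where the summed Frizzled level was 30.3 FPKM. DVL3 fell in the last step by 1.09 (limma adjusted p 8.11e-06). AXIN2, a scaffold of the destruction complex and a known target of beta-catenin signaling, averaged 6.83, 10.9, 7.72 and 1.93 FPKM and fell by 1.58 in the last step (limma adjusted p 4.19e-07). Of the 9 TCF/LEF factors and co-activators, 4 were raised and 1 lowered in the first step, against 8.30% and 7.62% of all genes. LEF1 rose from 0.195 to 7.74 FPKM (log2 change 2.86). It passed the filter only through the groups after H1, so this rise is a description. TCF7L1 fell from 3.52 to 0.940 FPKM (log2 change -1.22). It passed the filter only through its H1 and CD31+CD34+ libraries, so this fall is a description as well. Of the 12 planar polarity partners, 4 were raised and 0 lowered by limma in the first step, beside the same shares of all genes, among them VANGL1 (2.47 to 8.54 FPKM) and DAAM1 (8.47 to 33.8 FPKM), a formin that binds Dishevelled. The same list had 1 raised and 1 lowered in the second step and 3 lowered in the third.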

How the data were processed

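The authors deposited 1 table of FPKM values with a column for each of the 12 libraries, and all columns were matched to samples by title. The submitters' processing notes name BWA, Bowtie, RSEM and hg19, without versions or roles. Annotation and scaling are not given in the sources used here. Per the labels, total RNA was taken up in Trizol and made into libraries with a TruSeq kit, and the study's methods do not say which of its sequencing companies ran which library. Of 58366 lines under the header, 1 line of text was dropped. For the 345 symbols on several lines, none of them a Frizzled gene, only the line with the largest mean entered. FPKM are not counts, so no count model was used, and absolute depth is unknown. Relative depth came from the spacing of values between 0.0001 and 0.2 FPKM. No Frizzled value was 0.

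Values were transformed as log2(FPKM + 1), and genes reaching 1 FPKM in at least 3 libraries were kept (14840). limma 3.58.1 in R 4.3.3 (lmFit, contrasts.fit, eBayes with trend) was fitted to the 4 groups together without covariates, with Benjamini-Hochberg adjustment over all genes in each comparison, and every adjusted p printed is from this fit. Calls needed an adjusted p below 0.05 with a 2-fold or larger change. Ratios of partners were compared by two-sided exact permutation tests of 3 against 3 libraries, whose smallest p is 0.1. The fit was tested on simulated data. The members, gene lists, tests and naming rules were chosen with earlier results of these data known, so no list is independent evidence. Named genes were all members, their overlapping genes, the 2 most similar genes of members spanning at least 2, the direct partners, and at most 4 called genes with the largest changes per list. Other settings tried were quantile normalization, upper-quartile scaling, a pseudocount of 0.1, a minimum mean of 5 FPKM, no filter, a replicate block, fits to the compared groups alone, eBayes without trend, no minimum change and leaving out each library. Tables, sequences and figures were made in Python 3.11.15 (pandas 2.3.3, numpy 2.4.6, scipy 1.17.1, Biopython 1.88, matplotlib 3.10.9). Sequences came from RefSeq (GRCh38.p14) and GENCODE 29 (GRCh38), builds other than that of the values. Sequences of FZD3 and FZD6 are not printed, and protein sequences were not used here.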

Additional observations from a re-analysis of the deposited data

How the results depend on the processing

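Each alternative was applied alone. The shares of all genes given above belong to the main setting. They are no baseline for the counts below, which describe the members only. With a pseudocount of 0.1 the count of Frizzled genes called was 4 for CD31+CD34+ to CD43+, 6 for CD43+ against H1 and 8 for CD31+CD34+ against H1. At a mean of at least 5 FPKM, where 3 members were left to test, the counts were 2, 2 and 0 for the 3 steps, 1 for CD43+ against H1, 2 for CD31+CD34+ against H1 and 3 for CD43+ against APLNR+. With no minimum change they were 8, 8 and 6 for the steps, 7 for CD43+ against H1 and 9 for CD31+CD34+ against H1. After quantile normalization 3 genes were called for CD43+ against APLNR+, without FZD2 and FZD3. Scaling to the protein-coding sum, an alternative chosen after seeing the data, called 7 in the second step. It moved the median of all genes by 0.19 in the first step, -0.17 in the second and -0.28 for CD43+ against APLNR+, and relative to that median FZD2 changed by -0.85, FZD3 by -0.97 and FZD4 by -0.89 in the second step, all under 2-fold. Quantile normalization moved the median by 0.12 for CD43+ against H1. Upper-quartile scaling gave summed Frizzled levels of 71.3 FPKM for H1 and 110.1 FPKM for mesoderm. With 1 library left out, the count ran from 3 to 5 for APLNR+ to CD31+CD34+. It ran from 4 to 5 for CD31+CD34+ against H1 and for CD43+ against APLNR+. The count stayed at 4 for H1 to APLNR+ and at 3 for CD43+ against H1. Leaving out 1 library gave counts of 0 to 1 for CD31+CD34+ to CD43+: without any one of the CD31+CD34+ libraries FZD10 no longer reached the filter, and the same held for replicates 2 and 3 alone (count 0), an alternative also chosen after seeing the data, in which the other 66 changes and partner differences kept their direction and call. With the replicate number as a block, counts were 4, 4 and 1 for the steps and 3, 5 and 5 for the other comparisons, with no call changed. The deviations of same-numbered libraries from their group means had correlations from -0.02 to 0.43, not all over 0.1, so the numbers were not taken as pairing. Own numbers correlated best in 23 of 36 cases of a library and another group (for 5 of 12 libraries in every group), and same-numbered replicate 1 libraries at 0.20 to 0.43, a hint from the data.

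The sign turned for 3 tested changes that were not called: FZD1 in the second step was 0.017 and FZD6 for CD43+ against H1 was 0.011 after quantile normalization, and FZD8 in the last step was -0.10 under protein-coding scaling and ran from -0.063 to 0.067 with a library left out. Among differences between partners, FZD1 against FZD2 in the first step was 0.95 and FZD1 against FZD7 in the last -0.23 with a pseudocount of 0.1, and FZD3 against FZD6 in the second ran from -0.042 to 0.29 with a library left out. The cause was not tested. FPKM holds no read totals, so values under 1 FPKM, those of FZD1, FZD9 and FZD10 in most groups, have unknown counting error.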

Other observations

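Ligands and competitors of the receptors varied over the same groups. Of 20 ligand genes, 6 were tested, and all 6 were under 1 FPKM in H1, so that they entered the test through later groups and their rise from H1 is a description. WNT4 and WNT8A reached 1 FPKM only in APLNR+ libraries. WNT5A, a ligand of the beta-catenin-independent pathways, averaged 0.524, 51.1, 2.88 and 1.25 FPKM in H1, APLNR+, CD31+CD34+ and CD43+ cells (first step log2 change 5.09), which put its highest mean in the group with the highest FZD8, FZD4 and FZD2. WNT5B averaged 0.348, 13.0, 12.1 and 52.4 FPKM, and WNT11 averaged 21.6 FPKM in HEPs and 12.4 FPKM in HPCs against 0.517 FPKM in mesoderm. The genes of secreted proteins with a Frizzled-type cysteine-rich domain, which can bind Wnt outside the cell, moved in different directions. SFRP1 averaged 70.8, 3.28, 14.4 and 12.03 FPKM and SFRP2 49.5, 14.2, 10.5 and 0.609 FPKM, while SFRP5 averaged 1.07, 0.0419, 3.24 and 39.5 FPKM and rose by 3.26 on the log2 scale in the last step (limma adjusted p 4.29e-10). These values are descriptions, and no relation between ligands and receptors was tested.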
